A study of Rattus norvegicus with 44 samples.

Results

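The 44 rats were ranked by a choroid plexus marker score, and the 11 rats with the highest score were set against the 11 with the lowest. The score was the mean of log2(value + 1) over 5 genes, Ttr, Kl, Clic6, Kcne2 and Cldn1, so that 22 of 44 rats were members of a side and 22 rats belonged to neither. Because the sides were chosen by these measured values, every difference between them is given as a description with no test. RNA came from the dentate gyrus of male F344 rats, 1 library per rat from 1 hemisphere. Young rats (YNG, 6 months, n = 10) were compared with older rats that received vehicle (AV, n = 12), ABT-263 at 12 mg/kg (AA, n = 11) or dasatinib at 1.2 mg/kg with quercetin at 12 mg/kg (ADQ, n = 11). ABT-263 is an inhibitor of BCL-2 family proteins, dasatinib is a tyrosine kinase inhibitor and quercetin is a plant flavonoid. The older rats began treatment at 12 months and were about 18 months old at tissue collection. They were dosed by mouth for 5 days per cycle, in 8 cycles before behavioral testing and a final one after it. A treatment of the YNG rats is not given in the sources used here.

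The choroid plexus is a secretory tissue that hangs into the brain ventricles and makes most of the cerebrospinal fluid. Its cuboidal epithelium carries ion and water transporters, seals the blood-fluid border with claudins and secretes carrier proteins, of which transthyretin is the most abundant, around a core of fenestrated capillaries and stroma. The dentate gyrus has no choroid plexus of its own, but the plexus of the lateral ventricle lies close to the hippocampus. Ttr encodes transthyretin, the carrier of thyroxine and retinol-binding protein. Kl encodes klotho, a membrane protein that acts as a co-receptor for FGF23, and Clic6 encodes a chloride channel family protein. Kcne2 encodes a potassium channel subunit and Cldn1 a tight junction protein.

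The deposited values were normalized reads, in which a single read was worth 0.652 to 1.504 depending on the library. Estimated depth was 10166691 to 24329811 reads per rat, with a median of 15359172 on the high side and 15680813 on the low side. Library 3989, an AV rat of the high side, stood apart, because it held the highest value of all 44 rats for 2342 of 15593 genes (15.02%), while no other rat did so for more than 5.53%. Values are therefore also given without the rats they rest on. In bulk tissue, fewer cells of a type and less RNA per cell cannot be told apart.

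The high side held 5 AV, 1 AA, 2 ADQ and 3 YNG rats, and the low side 2 AV, 3 AA, 4 ADQ and 2 YNG rats. In order of score, the high side was formed by 4009 (AV, 6.66), 3985 (AA, 6.29), 4569 (AV, 6.00), 4074 (ADQ, 5.33), V11 (YNG, 5.10), 4566 (AV, 4.95), 4568 (AV, 4.90), 3989 (AV, 4.77), V12 (YNG, 4.71), V4 (YNG, 4.71) and 4031 (ADQ, 4.69). The low side ran from 3984 (AA, 4.01) to V2 (YNG, 3.14). Just outside the limits were 3983 (AA, 4.62) below the high side and 4110 (ADQ, 4.14) above the low side. The first 4 rats spanned 6.66 to 5.33, and the other 7 members of the high side, from 5.10 to 4.69, lay next to the rats of neither side.

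**Figure D1:**
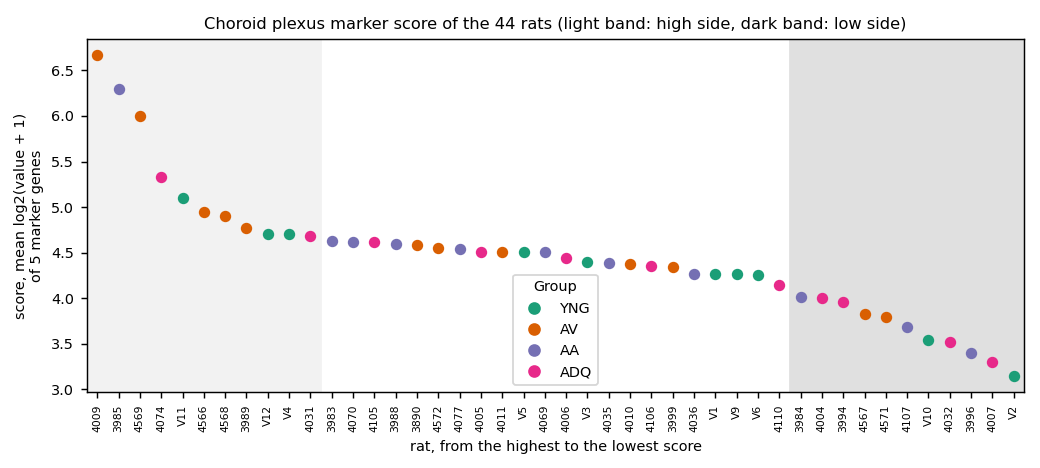
Choroid plexus marker score (mean log2(value + 1) of 5 genes, vertical axis) of each rat, ordered from the highest to the lowest and coloured by Group. The light band marks the 11 rats of the high side and the dark band the 11 of the low side, and the 4 rats from 6.66 to 5.33 stand above the slope formed by the others.

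Each Group had rats on both sides. The score was 4.77 ± 0.824 in AV (SD, n = 12), 4.45 ± 0.736 in AA (n = 11), 4.29 ± 0.570 in YNG (n = 10) and 4.26 ± 0.567 in ADQ (n = 11), so the group means lay closer together than the rats within a group. The 4 highest scores came from AV, AA and ADQ rats, and the highest YNG score was 5.10.

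Of the 5 score genes, 3 differed between the sides by at least 1 on the log2 scale. Ttr was at 60.8, 123 and 1224 (lowest, median and highest rat) on the high side and at 6.19, 20.3 and 55.8 on the low side, a difference in mean log2 of 3.23. The sides did not overlap in Ttr. The rats 4009 (1224), 3985 (835), 4569 (582), 4074 (312) and 4566 (238) had the highest Ttr, and the other 6 high-side rats, at 60.8 to 123, lay within the range of the rats of neither side (2.74 to 129).

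Clic6 was at 2.86, 12.3 and 58.6 on the high side and at 0, 1.94 and 6.42 on the low side, a log2 difference of 2.64. Kl was at 2.76, 7.70 and 46.9 on the high side and at 0, 1.504 and 5.17 on the low side, a log2 difference of 1.78. In each of these genes 8 of 11 high-side rats lay above the highest low-side rat, and 3 overlapped with the low side. The Kl values rested on few reads, at a median of 6 reads per high-side rat and 1 read per low-side rat. Clic6 was also sparse, at a median of 12.8 reads per high-side rat (lowest 2.57) and 2 reads per low-side rat (highest 6).

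Kcne2 and Cldn1 differed little between the sides. Kcne2 was at 18.9, 32.4 and 58.0 on the high side and at 18.6, 27.1 and 46.5 on the low side, a log2 difference of 0.30. Cldn1 was at 76.8, 89.9 and 155 on the high side and at 33.9, 83.6 and 153 on the low side, a log2 difference of 0.20. Both genes overlapped almost fully between the sides, with 2 and 1 high-side rats above the highest low-side rat. Over the 44 rats the Pearson r between genes was 0.55 for Ttr and Kl, 0.48 for Ttr and Clic6 and 0.59 for Kl and Clic6, and Spearman's rho was 0.37, 0.39 and 0.49. Without 4009 and 3985, the rats farthest from the median score, r fell to 0.32, 0.27 and 0.42. Ttr had an r of 0.04 with Kcne2 and -0.10 with Cldn1. When Kcne2 was left out of the score, all 11 rats of each side stayed the same, and when Ttr was left out, 7 of 11 high-side and 9 of 11 low-side rats stayed. The numbers that stayed were 8 and 10 without Clic6, 10 and 10 without Kl and 9 and 11 without Cldn1.

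**Figure D2:**
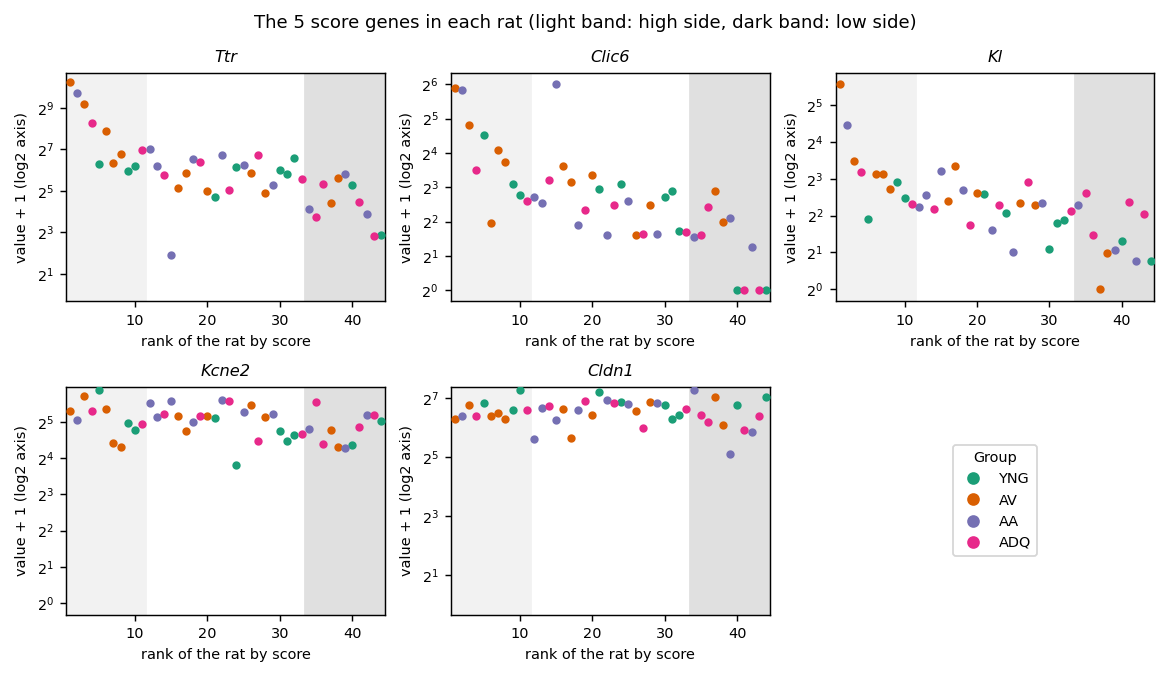
Value + 1 of the 5 score genes (log2 axis) in each rat, with the rats ordered by score and coloured by Group, and the high side (light) and low side (dark) shaded. Ttr, Clic6 and Kl decline from left to right and separate the sides by 3.23, 2.64 and 1.78 on the log2 scale, while Kcne2 and Cldn1 stay level.

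Outside the score genes, no gene separated the sides. Among the 15593 genes left by a filter on the mean (5 or more), none was higher in every high-side rat than in every low-side rat (0%), and none was lower in every one (0%). A difference in mean log2 of at least 1 was reached by 35 genes that were higher on the high side (0.224%) and by 18 that were lower (0.115%). The central 95% of the differences lay between -0.36 and 0.43, with a median of -0.0029. The r with the score reached at most 0.51 outside the score genes.

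Further choroid plexus genes were read from 6 lists by role, with 156 genes in all, of which 144 were named in the table and 119 passed the filter on low values. Of the 119, 72 were higher on the high side, 1 by at least 1 on the log2 scale, and the median difference was 0.046, beside -0.0029 for all genes tested. Without 4009 and 3985, the rats farthest from the median score, the median was 0.019 and 66 of 119 members were higher. Without 4009, 4568 and 3989, rats singled out after their cytotoxic gene values were seen, the sign turned, with a median of -0.021 and 55 of 119 members higher. The median was 0.021 without 3989 alone and -0.014 when Clic6 was left out of the score. With every rat kept, the share of higher members was 72 of 119, against 7627 of 15593 for all genes. The remaining 24 measured members had mean values below 5.

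Ion and water transporters, which drive fluid secretion, did not follow the score as a group. Of 18 members tested, 9 were higher on the high side and the median difference was -0.0042. Aqp1, the water channel of the ventricular face of the epithelium, was at 4.004, 13.6 and 55.7 on the high side and at 3.48, 9.02 and 21.4 on the low side. The log2 difference was 0.58, and it was 0.31 without 4009 and 3985 and 0.14 without 4009, 4568 and 3989. The rats 3989 (55.7), 4009 (39.5) and 3985 (29.1), lay above the low side. Slc4a5, a sodium bicarbonate cotransporter, was at 31.99 in 4009 and 28.3 in 3985, and at 3.23 to 11.0 in the other high-side rats, against 3.13 to 10.9 on the low side. Its log2 difference was 0.25, and -0.13 without those rats. Kcnk1, a potassium leak channel (0.16), and Trpm3, a cation channel (0.15), had the next largest differences, with no high-side rat above the low side. Kcnj13, a potassium channel of the epithelium, lay under the filter, at a median of 4.72 on the high side and 3.52 on the low side, with its highest values in 4009 (13.8) and 4074 (11.1).

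Among transporters of organic solutes and drugs, 15 of 23 members were higher on the high side, with a median difference of 0.066. Abca4, a lipid-transporting ABC protein best known from the retina, was at 2.23, 8.69 and 395 on the high side and at 3.21, 7.04 and 13.4 on the low side. Its log2 difference of 1.07 came from 3989 (395), 4568 (142) and 4009 (122), and without these rats it was -0.23. In the 8 other high-side rats Abca4 lay within or below the low-side range. Slc13a4, a sulfate transporter, was at 28.3, 66.8 and 115 on the high side and 30.2, 59.1 and 84.6 on the low side (log2 difference 0.35). Abcc4, an efflux pump (0.21), and Slc16a8, a lactate transporter (0.20), followed.

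Of the secreted proteins and carriers, 17 of 27 were higher on the high side, with a median difference of 0.057. Igf2, an insulin-like growth factor made by choroid plexus and meninges, was at 84.8, 171 and 348 on the high side and at 65.3, 106 and 184 on the low side. The highest Igf2 values were in 3985 (348), 3989 (328) and 4074 (200.2), which alone lay above the low side. The log2 difference was 0.58, and it was 0.45 without 4009 and 3985. Igfbp2, which binds these growth factors, was at 101, 177 and 234 on the high side and at 72.7, 126 and 284 on the low side (0.42). Col8a2, a short-chain collagen, was at a median of 16.96 against 11.2 (0.47), and Cp, the copper-carrying ceruloplasmin, at 65.2 against 49.3 (0.31, and 0.0093 without 4009, 4568 and 3989). Igf2, Igfbp2 and Col8a2 all overlapped between the sides.

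Receptors and enzymes had 12 of 22 members higher on the high side and a median difference of 0.034. Mfrp, a frizzled-related membrane protein, had the highest r with the score of all genes outside it. It was at 98.1 in 4009, 57.4 in 3985 and 47.2 in 3989, against 2.002 to 21.2 in the other high-side rats and 4.28, 8.80 and 19.8 on the low side. Its r was 0.51 over 44 rats (Spearman's rho 0.34) and 0.21 without the 2 farthest rats, and its log2 difference of 0.63 became 0.14 without 4009 and 3985. Cubn, a receptor for protein uptake, was at 6.79, 12.8 and 25.6 on the high side and 3.01, 9.13 and 16.9 on the low side (0.57). Pcolce, an enhancer of procollagen processing, differed by 0.35. Lrp2, the megalin receptor, was at a median of 26.96 on the high and 28.1 on the low side (-0.30).

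Junction and keratin genes, which mark epithelium, had 11 of 16 members higher on the high side and a median difference of 0.025. Krt8, a keratin of simple epithelia, was at 4.46, 15.1 and 24.96 on the high side and 2.09, 9.83 and 34.97 on the low side (0.58). Epcam, an epithelial adhesion protein, went the other way, at 6.01, 8.88 and 25.6 against 4.13, 13.2 and 44.7 (-0.57), as did Cldn3, a claudin of the plexus, at 6.79, 13.01 and 50.1 against 10.3, 18.3 and 26.4 (-0.42). The highest Epcam values were on the low side, in 4571 (44.7) and 3996 (43.4). Cdh1, the epithelial cadherin, differed by 0.31. Of 13 transcription factors of the choroid plexus and roof plate, 8 were higher, with a median difference of 0.079. Tp73, a p53 family member, was at 9.06, 19.3 and 48.1 on the high side and 7.52, 15.5 and 25.2 on the low side (0.41). Otx1 differed by -0.25, Gmnc by 0.23 and Rfx3 by 0.21.

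Of the 24 list genes under the filter, Folr1 showed the largest difference. Folr1 encodes the folate receptor that carries folate across the plexus, and it was at 0, 9.02 and 37.4 on the high side and at 0, 1.04 and 7.94 on the low side. The rats 3985 (37.4), 3989 (27.3), V11 (19.3), 4074 (10.5), 4009 (9.76) and 4569 (9.02) lay above the low side, a log2 difference of 1.76, which was 1.47 without 4009 and 3985. Sostdc1, a secreted BMP and Wnt antagonist, was at 22.4 in 4009 and 13.3 in 3985 and at most 7.66 in any other rat. Tmem72, a membrane protein of the plexus, was at 14.9 in 4009 and 9.98 in 3985, but the low-side rats 3996 (29.4) and 4571 (12.9) were above 3985, and the sides did not differ in mean (-0.014 on the log2 scale). Otx2, the transcription factor that maintains plexus identity, was at 0 in 8 of 11 high-side and 10 of 11 low-side rats, with a highest value on either side of 2.13. Enpp2, which encodes autotaxin and is also made by oligodendrocytes, was at 410, 613 and 1073 on the high side and at 356, 503 and 1094 on the low side (0.020).

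**Figure D3:**
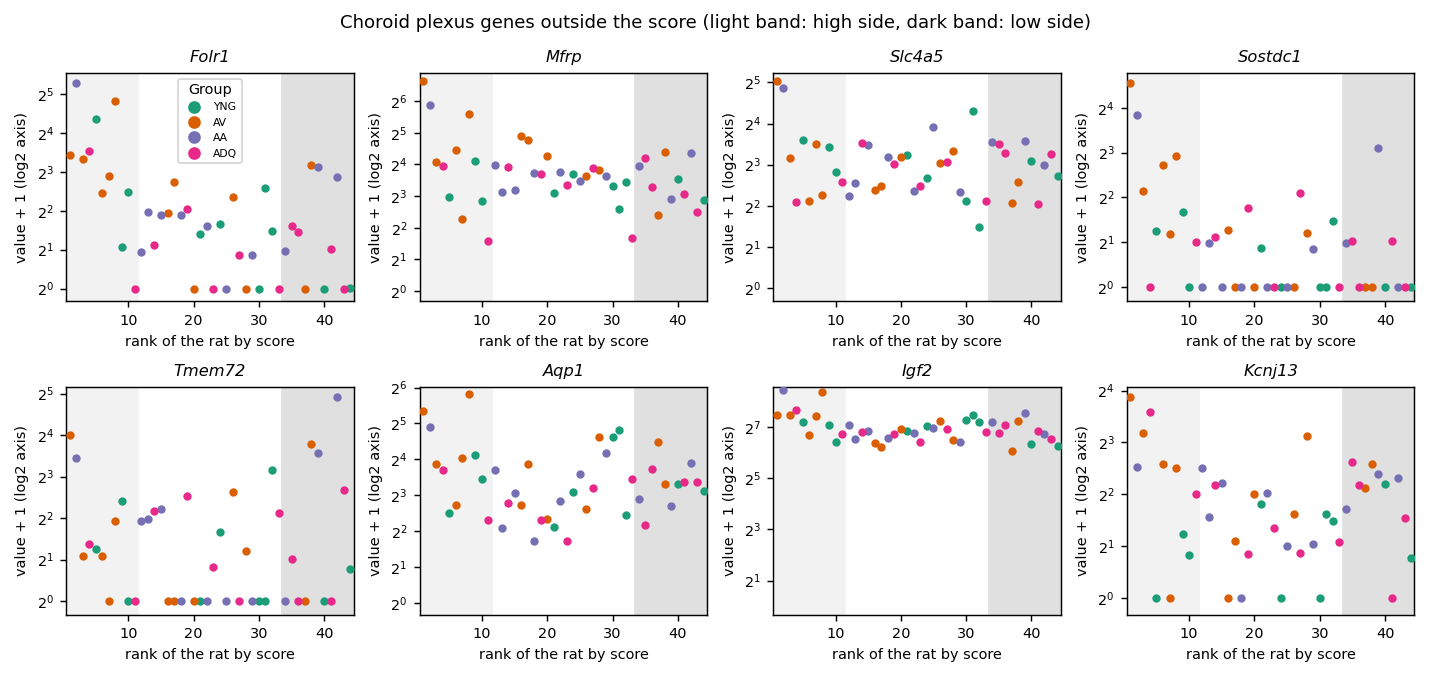
Value + 1 (log2 axis) of 8 choroid plexus genes outside the score, with the rats ordered by score and coloured by Group, and the high side (light) and low side (dark) shaded. In Mfrp, Slc4a5 and Sostdc1 the rats 4009 and 3985 at the left edge stand above the rest, while Tmem72 is highest in 3996, a rat of the low side.

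Read against these markers, the label of high choroid plexus content held for some markers only, and in few rats. Of the markers named next, Sostdc1 and Folr1 were chosen after their values were seen. In 4009 and 3985, high Ttr, Kl and Clic6 came with high Mfrp, Slc4a5, Sostdc1 and Folr1. Other markers were not raised in these rats. Kcne2 was at 38.4 and 32.4 and Cldn1 at 76.8 and 83.2, within the low-side ranges. Kcnj13 lay above the low side in 4009 (13.8) but not in 3985. In 4569 and 4074, with Ttr at 582 and 312, Mfrp was at 15.8 and 14.5, Slc4a5 at 7.92 and 3.23 and Sostdc1 at 3.40 and 0, but Folr1 was at 9.02 and 10.5, above the low side and near its value in 4009, and Kcnj13 at 8.11 and 11.1. Rat 3989 had high Mfrp, Aqp1 and Folr1 and V11 had high Folr1 (19.3), but Sostdc1 was at 6.60 and 1.38 in these. Because most choroid genes did not follow the score, the sides are named here by the score alone. The rat holding the highest value of each gene was also counted. Of the 119 choroid members that passed the filter, 51 (42.9%) were highest in a high-side rat, against 30.3% of all genes. Of these, 32 fell to 3989 (26.9% of the 119, against 15.02% of all genes). Rat 4009 held 7 (5.88%, against 3.19% of all genes) and 3985 held 5 (4.20%, against 2.58%). Of the 24 members under the filter, 4009 held 6 and 3985 held 4.

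A rat of neither side showed a further pattern. Rat 3988 (AA, score 4.59) had Clic6 at 64.0, the highest of all rats, with Ttr at 2.74, the lowest of all. It held the highest value for 13 of the 119 choroid members that passed the filter (10.9%, against 5.53% of all genes), among them Lrp2 (195), and for 5 of the 24 under it, among them Lmx1a (21.9). Cbln1, a cerebellin, was at 3797 in this rat and at most 436 on either side, and Calb2, a calcium-binding protein of thalamic and other neurons, was at 1082 against at most 193 on either side. These 4 genes and the rat were chosen after their values were seen.

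**Figure D4:**
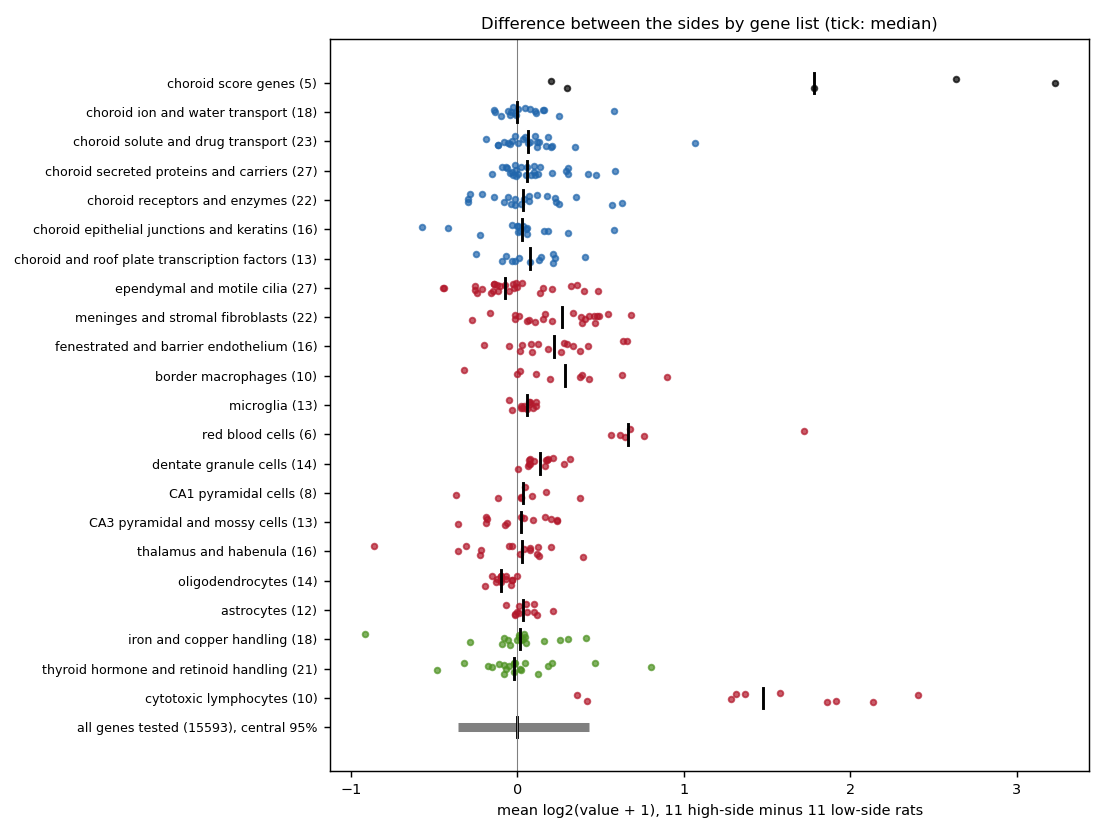
Difference in mean log2(value + 1) between the 11 high-side and 11 low-side rats for each member of each list (points) with the list median (tick), the number of members tested in parentheses, and the central 95% of all genes tested at the bottom. The 6 choroid lists (blue) have medians between -0.0042 and 0.079, close to 0, while the cytotoxic lymphocyte list, chosen after values were seen, has a median of 1.47.

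In the 22 rats of neither side the slope of each gene on the score, with Group as a term, was fitted with limma across all genes. No gene passed an adjusted p of 0.05 (0 of 15593, 0%), the smallest adjusted p was 0.99989, and 148 genes (0.949%) had an unadjusted p under 0.05. Among 119 choroid list members, 5 had an unadjusted p under 0.05. Mfrp (2.41 ± 0.925 log2 units per unit of score, SE) and Tp73 (3.24 ± 1.30) had positive slopes, and Aqp1 (-3.62 ± 1.43), Cubn (-3.17 ± 1.14) and Penk (-1.07 ± 0.494), a neuropeptide precursor, had negative ones. The adjusted p from limma was 0.99989 for each of the 5. The scores of these rats spanned 4.14 to 4.62, because the choice of sides took the rats at both ends, so that a slope in them had little range to be seen in and the count of 0 says little.

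Genes with the highest r with the score were a mixed set. After Mfrp came RT1-T24-3, an MHC class I gene, with an r of 0.51 (0.30 without the 2 farthest rats), and Oas3, an interferon-induced enzyme of RNA sensing, with an r of 0.51 (0.41). Oas3 was at 2.83, 9.93 and 20.7 on the high side and at 0, 4.17 and 8.56 on the low side, and 8 of 11 high-side rats lay above the low side (log2 difference 1.33). Igf2 had an r of 0.50 (0.35). LOC103690996 (0.49), Gcnt2 (0.47) and Rbpjl2 (0.47) followed. With n = 44 and sparse reads in several of them, these values are descriptive.

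Cytotoxic lymphocyte genes, a list of 17 added after the values were seen, held some of the largest differences outside the score genes. Of the 17, 14 were named in the table and 10 passed the filter. Several of the 10, such as Cd8a, Gzmk, Nkg7 and Tbx21, had a low-side median of 0 and passed through the few rats where they were high, so the filter itself favoured a difference, and the list median of 1.47 is a description only. Cxcr3, a chemokine receptor under the filter, differed by -0.14. Prf1, the pore-forming protein perforin, was at 0.807, 3.06 and 461 on the high side and at 0, 1.07 and 13.9 on the low side. It was high in 3 high-side rats, 4009 (461), 4568 (267) and 3989 (228), all AV, and in the AV rat 3999 of neither side (199). The other 8 high-side rats lay at 0.807 to 4.53, within the low-side range. Cd8a, the CD8 co-receptor, was at 117 in 4568, 88.5 in 4009 and 49.1 in 3989, and Ccl5, a chemokine that recruits T cells, at 487, 529 and 112. Without these 3 rats the list median was 0.19 and the Prf1 difference 0.63 in place of 2.41. Of the 35 genes higher by at least 1, 24 had their highest value in 1 of these 3 rats, and 15 stayed at least 1 higher without them. Of all genes tested, 3989 held the highest value for 15.02%, 4009 for 3.19% and 4568 for 1.75%. The 3 rats were chosen by their cytotoxic values, and 8 members of this list are among the 35. Both counts thus follow in part from that choice and are descriptions only. The part of these rats' cytotoxic and choroid markers in each other was not tested.

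Vascular, blood and border cell genes also ran higher in single high-side rats. The high side held 5 AV rats and the low side 2, and some endothelial genes were higher in AV than in YNG, as given below. Red blood cell genes were higher for 6 of 6 members, with a median of 0.66 (0.33 without 4009, 4568 and 3989), and rat 3989 held the highest value of all 7 genes measured. Their summed value was 2435 to 95413 on the high side and 3516 to 39430 on the low side. Slc4a1, the anion exchanger of red cells, was at 688 in 3989 and 119 in 4009 against 0, 7.30 and 49.2 on the low side (1.72, and 0.79 without 4009, 4568 and 3989). Hbb-bs, a beta globin, differed by 0.76. Of 16 endothelial genes 14 were higher, with a median of 0.22 that became -0.064 without 4009, 4568 and 3989. Vwf, the von Willebrand factor, was at 7244 in 3989, 3519 in 4009, 3069 in 4568 and 2789 in 3999 of neither side, and at 349.8, 704 and 1145 on the low side. Kdr, the VEGF receptor, differed by 0.64, and Angpt2, a vessel-destabilizing ligand, was at 1634 in 3989, 487 in 4568 and 381 in 4009 against at most 42.2 on the low side. Plvap, the diaphragm protein of fenestrated capillaries such as those of the plexus, was at a median of 34.5 on the high and 42.1 on the low side (-0.20).

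Most stromal genes and single border macrophage genes were also higher on the high side, but the median of the border macrophage list fell to near 0 without those rats. Of 22 genes of meninges and stroma 18 were higher, with a median of 0.27 (0.091 without 4009, 4568 and 3989). Col3a1, a fibrillar collagen, was at 6.01, 34.9 and 66.2 on the high side and at 7.49, 14.6 and 33.7 on the low side, with 6 of 11 high-side rats above the low side (0.68, and 0.88 without the 3 rats). Nupr1, a stress-response gene, differed by 0.54. Of the common stromal markers, Col1a1 was higher by 0.43, while Dcn (-0.17) and Lum (-0.27) were lower. Of 10 border macrophage genes 8 were higher (median 0.29, and 0.0029 with 5 of 10 higher without the 3 rats). Cd163, a scavenger receptor, was at 6.01, 16.7 and 26.2 on the high side and 1.94, 8.80 and 19.6 on the low side (0.90, and 0.86 without the 3 rats). Folr2, the macrophage folate receptor, differed by 0.63. Their part in the Ttr difference was not tested.

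**Figure D5:**
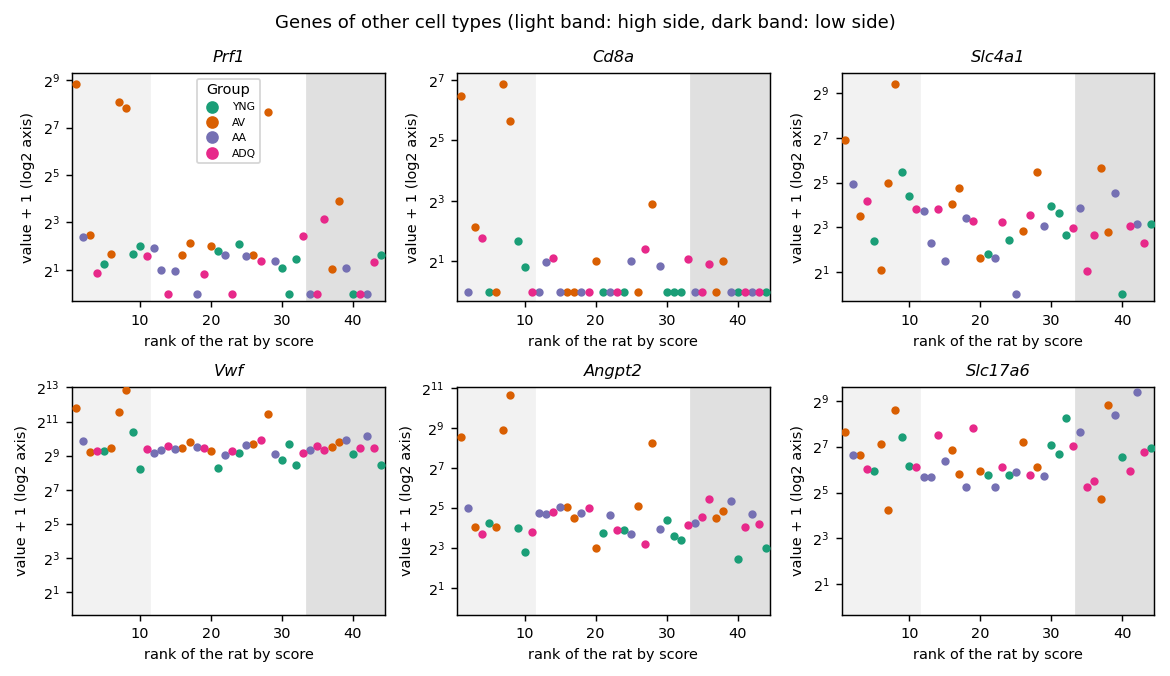
Value + 1 (log2 axis) of 6 genes of other cell types, with the rats ordered by score and coloured by Group, and the high side (light) and low side (dark) shaded. Prf1, Cd8a, Vwf and Angpt2 are highest in the AV rats 4009, 4568 and 3989 of the high side, Slc4a1 is highest in 3989, and Slc17a6 is highest in the low-side rat 3996.

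Genes of the brain cells themselves differed by less. Ependymal and motile cilia genes, from the lining next to the plexus, were higher for 8 of 27 members, with a median of -0.074. Hydin, a ciliary protein, was at 22.6, 53.2 and 123 on the high side and 48.1, 67.7 and 130 on the low side (-0.45), and Cfap43 differed by 0.48. All 14 dentate granule cell genes tested were higher on the high side, by at most 0.31 (Npnt) and with a median of 0.13, and the 14 oligodendrocyte genes were all lower, down to -0.20 (Ugt8), with a median of -0.097. Without 4009, 4568 and 3989 the medians were 0.26 for granule cell genes and -0.20 for oligodendrocyte genes, with each member on the same side of 0. Among the rats left out, 3989 had summed values of 19522 and 188035 in these lists. The median rat went the other way in summed value. It was at 37813 on the high and 39353 on the low side for granule cell genes, and at 83834 and 77612 for oligodendrocyte genes. In the low-side rats 4107 and 3996 the granule cell sums were 16003 and 22354. C1ql2, a secreted protein of granule cell synapses, was at 3747, 5430 and 8352 against 1266, 5788 and 8975 (0.28). The lowest C1ql2 values were in the low-side rats 4107 (1266) and 3996 (2400), where Pou3f1, a CA1 gene, was at 2250 and 1223. Microglial genes (median 0.056), astrocyte genes (0.032), CA1 genes (0.035), CA3 and mossy cell genes (0.025) and genes of thalamus and habenula (0.026) lay within 0.1 of 0. Among these, Chrnb4, a nicotinic receptor subunit of the habenula, was lower by 0.86, with its highest values in 3996 (32.2) and 4571 (23.8). Slc17a6, the vesicular glutamate transporter of thalamus, was at 659 in 3996, 457 in 4571 and 335 in 4107 of the low side. It was at 391 in 3989 of the high side. Its medians were close, at 98.5 on the high and 109 on the low side, and it was chosen after its values were seen.

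Pathways in which the plexus takes part did not move together. Of 18 genes of iron and copper handling 11 were higher (median 0.017), and of 21 genes of thyroid hormone and retinoid handling 8 (median -0.019). Slc40a1, the iron exporter, differed by -0.92 at values of 0 to 22.4, Cybrd1, a ferric reductase, by 0.41, Slc16a10, a carrier of thyroid hormone, by 0.80 at values of 0 to 17.9, and Dio1, a deiodinase, by -0.48 at 0 to 16.7. Each of these overlapped between the sides.

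Genes lower on the high side by at least 1 included short non-coding RNAs and epithelial genes of low value. Rn7sl1, the RNA of the signal recognition particle, was at 49.5, 92.4 and 380 on the high side and at 116, 255 and 3214 on the low side (-1.37). Rn7sl1 shares nearly all of its values with the Metazoa_SRP entry, so the entries cannot be counted apart. Gatd1 was at 0.0053, 58.0 and 298 against 49.9, 89.6 and 213 (-1.60). Cldn4, a claudin of other epithelia, was at 0, 3.34 and 22.8 against 0.880, 5.42 and 101 (-1.45), and Ripk4, an epithelial kinase, at 0, 1.11 and 34.1 against 0, 7.52 and 60.1 (-1.41). These 4 were chosen after their values were seen. Of the 18 genes, 16 stayed at least 1 lower without 4009, 4568 and 3989.

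The Groups were compared in all 44 rats with limma, because they were unevenly spread over the sides. None of the 5 score genes passed an adjusted p of 0.05 in any of 5 contrasts. For AV against YNG the log2 difference was 0.85 in Ttr (limma adjusted p = 0.467), 0.92 in Clic6 (adjusted p = 0.339) and 0.79 in Kl (adjusted p = 0.268). Ttr was at 20.3, 57.2 and 1224 in AV and at 6.32, 62.4 and 95.2 in YNG, and its medians were alike where its highest values were not. AA and ADQ differed from AV in Ttr by -0.67 and -0.89. Over all genes, 367 (2.35%) passed for AV against YNG, 601 (3.85%) for AA against YNG and 1104 (7.08%) for ADQ against YNG. Leaving out 1 rat moved these counts to between 180 (without V4) and 1592 (without 4567), between 28 (without V2) and 2359 (without V11), and between 104 (without V1) and 2726 (without V11), and the 3 contrasts share the YNG rats. None passed for AA against AV (0%, with 703 genes at an unadjusted p under 0.05) or for ADQ against AV (0%, with 1454).

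Of the 119 choroid list members, 16 passed in at least 1 contrast with YNG. This was 13.4% of the members, beside 1560 of all 15593 genes. In AV 4 were higher and 1 lower (4.20%, beside 2.35% of all genes), in AA 3 and 3 (5.04%, beside 3.85%), and in ADQ 6 and 5 (9.24%, beside 7.08%), shares near those of all genes. Cdh1 was higher in all 3 older groups, at 5.63 ± 6.84 (SD, n = 10) in YNG, 41.2 ± 19.1 (n = 12) in AV, 30.2 ± 16.0 (n = 11) in AA and 28.03 ± 8.62 (n = 11) in ADQ, with log2 differences of 3.25 ± 0.371 (SE, limma adjusted p = 1.66e-07), 2.79 ± 0.378 (adjusted p = 2.12e-05) and 2.74 ± 0.378 (adjusted p = 2.13e-05). Igfbp2 was lower in AA (-0.68, limma adjusted p = 0.0369) and ADQ (-0.77, adjusted p = 0.0169), and Calml4, a calmodulin-like protein, in AV (-0.88, limma adjusted p = 0.0153) and AA (-0.83, adjusted p = 0.0331). Slc12a7, a potassium chloride cotransporter, was higher in AV (0.65, limma adjusted p = 0.00863) and ADQ (0.52, adjusted p = 0.0277). Ecrg4, a secreted peptide precursor of the plexus, was higher in AV (0.86, limma adjusted p = 0.0340). Between the sides chosen by score, Slc12a7 differed by 0.11, Ecrg4 by 0.0055 and Calml4 by 0.25. Among the other lists, Lef1, a Wnt pathway factor, was higher in AV (0.99, limma adjusted p = 0.00483). Of the 16 endothelial genes tested, 6 passed in AV and 2 in AA, all higher, and 0 passed in ADQ. Beside these stand 2.35%, 3.85% and 7.08% of all genes. Vwf (1.35, limma adjusted p = 0.00997) and Kdr (1.28, adjusted p = 0.0108) were among the 6 in AV. The endothelial list was singled out here after its values were seen. Prf1, from the list added after values were seen, was higher in AV by 2.77. It passed the filter through the AV rats 4009, 4568, 3989 and 3999, so this difference is a description only and no p is given. Sall1 was higher in all 3 older groups (0.61, 0.53 and 0.46, with limma adjusted p = 0.00327, 0.0241 and 0.0261), and so were Prss35 (0.74, 0.65 and 0.96) and Spag6 (1.53, 1.29 and 1.58), each past the threshold. Hapln2, a myelin-associated link protein, was higher in AV (0.95, limma adjusted p = 0.0284) and AA (1.11, adjusted p = 0.0232). With single rats left out in turn, the calls of Prss35 in AV and AA, Sall1 in AA and ADQ, Spag6 in AA, Hapln2 in AV and AA and Igfbp2 in AA and ADQ were each lost for at least 1 choice of the rat, while those of Cdh1 were kept for each. Calml4, Slc12a7 and Ecrg4 were not followed in this way, and for the endothelial genes such values are not reported here.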

How the data were processed

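RNA of the dentate gyrus was sequenced from poly(A)-selected libraries of 44 rats. Per the submitters' processing notes and methods, alignment used STAR 2.5.3a in Partek against rn6, and counts were scaled by the median ratio. The authors deposited 1 table of normalized signal values (24694 rows, 18347 gene identifiers), with an annotation that is not given in the sources used here. Low values were whole multiples of a read for 79.2% to 84.5% of values (tolerance 0.05 reads), so no count model was used. Intervals of counting error were not computed, and PCR duplicates cannot be told from separate molecules. For older rats the labels state 12 months and no treatment, so the Group was read by rat name from the authors' attribute table. Each rat is a separate animal.

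Rows were summed per gene identifier, and genes with a mean of at least 5 over the 44 rats were kept (15598, or 15593 without the score genes). Values were log2(value + 1). The rats of neither side and the Groups were fitted with limma 3.58.1 in R 4.3.3 (empirical Bayes with a trend, two-sided, Benjamini-Hochberg over all genes tested), and the fits were tested on simulated data. Python 3.11.15 with numpy 2.4.6, pandas 2.3.3 and matplotlib 3.10.9 made tables and figures. The named genes were the score genes, genes with sides that do not overlap (none), the 4 members of each choroid list and the 2 of each other list that differed most between the sides, the 3 smallest p of each contrast among list members and the 8 highest r, with genes outside this rule named as chosen after their values were seen. Genes of the cell type markers, cytotoxic genes and called choroid members beyond the 3 smallest p were added after their values were seen, as were Folr1, Sostdc1, Tmem72 and Angpt2. The members, lists and rule were chosen with earlier results of these data known. Other pseudocounts, filters, scalings, scores, sizes of the sides, covariates and left-out rats were tried as alternatives. A few genes that the rule selects are not reported here.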

Additional observations from a re-analysis of the deposited data

Results flagged for a closer look

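In the 10 YNG rats, 35 values were checked for a highest or lowest rat far from the others by Dixon's ratio, and 5 passed the critical value of 0.466. For normally distributed values chance gives about 1 in 20 groups. Gene values were checked without the log2 step, so this rate need not hold and the flags are descriptive. The other Groups hold more than 10 rats and were not checked. Rat V11 of the high side held the highest value of Clic6 (22.1, with the next YNG rat at 7.60), of Kcne2 (58.0, next 33.4) and of Abcc4 (213, next 155). Clic6 and Kcne2 are score genes, so these values helped to place V11 on the high side. The Ttr of V11 was 78.7 and its Folr1 19.3. Rat V6, of neither side, held the highest Epcam (30.2, next 18.3), and V9, also of neither side, the highest Otx1 (52.5, next 30.9).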

How the results depend on the processing

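No paired analysis was possible because each rat carries its own number, shared by no other rat. Rat numbers were instead split into a lower range, up to 4011 and V6, and a higher one, which were used as a block. This cut was chosen here and is not given by the labels. The rats 4566 to 4572, in the higher range, were all AV, so the block is partly confounded with Group.

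Between the sides, 35 genes were higher and 18 lower by at least 1 on the log2 scale. The higher count was 13 with a pseudocount of 5, 13 with a mean of at least 20, 81 with no filter, 22 with the score without Clic6, 79 with 8 rats against 8, 59 in older rats only, 172 in rats of lower numbers only and 23 without 4009, 4568 and 3989. The lower count was 36 with a pseudocount of 0.5, 5 with a pseudocount of 5, 6 with a mean of at least 20, 34 with no filter, 48 with the score without Ttr, 38 without Clic6, 62 with 8 against 8, 34 in older rats, 101 and 55 in rats of lower and of higher numbers, 28 adjusted for Group, 33 without 4009 and 3985 and 32 without 4009, 4568 and 3989. Genes with sides that do not overlap numbered 0, and 53 in rats of lower numbers, 11 in rats of higher numbers and 1 without 4009, 4568 and 3989. The choroid median of 0.046 was -0.014 with the score without Clic6 and -0.021 without 4009, 4568 and 3989, and 0.015 to 0.083 under the other settings. Fewer rats per side and more or fewer genes tested move these counts by construction, and other causes were not tested.

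Leaving out 1 rat gave 26 to 42 higher, 12 to 26 lower, 0 to 0 without overlap, a choroid median of 0.021 to 0.073 and 0 to 0 slopes past the threshold. It gave 180 to 1592 genes for AV against YNG, 28 to 2359 for AA against YNG, 104 to 2726 for ADQ against YNG, 0 to 0 between AA and AV, and 0 to 17 between ADQ and AV (17 without 4011).

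The counts for AV, AA and ADQ against YNG were 730, 1852 and 2253 with values scaled to the library total and 676, 1300 and 1698 with the block of rat numbers. With no filter AA against YNG gave 387, and with the score as a covariate AV gave 235 and AA 344. At an unadjusted p of 0.05 the counts were 3326, 4153 and 4386, with 703 between AA and AV, 1454 between ADQ and AV, and 148 in the slope. The causes were not tested.

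Of 157 named differences of any size, 9 changed sign without 4009 and 3985 (Slc4a5 to -0.13 among them) and 24 without 4009, 4568 and 3989 (Cdh1 to -0.0091 and Vwf to -0.071 among them). Of those of at least 1 that were followed, the ones that changed sign were AABR07020815.1 with the score without Ttr (-0.25), Nts (-0.026) and Adm (-0.020) with the score without Clic6, Nkg7 in rats of higher numbers (-0.012), and, without 4009, 4568 and 3989, Abca4 (-0.23), Angpt2 (-0.34), Nkg7 (-0.43), Il2rb (-0.076) and Tbx21 (-0.34). Genes at a few reads in many rats, such as Clic6, Kl, Folr1 and Sostdc1, are limited by depth.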

Other observations

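Once the rats 4009, 4568 and 3989 were left out, 1 gene of 15593 had sides that did not overlap, LOC100910196, at 7.43 to 66.0 in the 8 remaining high-side rats and at 0.026 to 5.67 on the low side. It was chosen after its values were seen. Over all 22 rats its log2 difference was 2.41, and the rats left out overlapped with the low side.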
